A study of Mus musculus with 4 samples.

Results

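The transcriptional response to crowding was examined in mouse embryonic fibroblasts (MEFs) labelled as lacking Lats2, a serine/threonine kinase of the Hippo pathway. The series holds 4 hybridisations, and the 2 whose genotype label is Lats2-/- were used here, namely an array titled as a contact inhibition experiment and its dye swap. The other 2 arrays carry Lats2+/+ (WT) cells and serve only for values side by side. All cells were embryonic fibroblasts from C57BL/6J mice, grown in DMEM with 10% serum and antibiotics. Low density cells were sampled while subconfluent, after 48 h, and high density cells after 3 to 5 days. Time in culture therefore changed together with density, and the 2 cannot be told apart. No dose, drug or transgene is named for any group.

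On each 2-colour Agilent array, labelled RNA of the high density culture competed with that of the low density culture. High density RNA carried Cy5 on the first array and Cy3 on the second, and the sign of the second was turned. Whether they shared RNA or came from separate cultures is not stated in the labels. The pair was counted as 1 replicate, so no p-value is given for any gene. Errors quoted are differences between the 2 arrays, which lay on different slides with different scan days. Values are log2 ratios of high over low density, averaged over the 2 arrays unless they are given one by one, first array first. A gene is said to have risen or fallen where both arrays gave the same sign and their mean reached 1 on the log2 scale, a 2-fold change. In cultured cells sampled in bulk, fewer cells that use a gene and less RNA per cell cannot be told apart.

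Contact inhibition is the arrest of growth in normal fibroblasts once they touch their neighbours. In the Hippo pathway, MST kinases activate LATS1 and LATS2, which phosphorylate the coactivators YAP and TAZ and keep them out of the nucleus. Free YAP and TAZ bind TEAD factors and drive genes of growth, adhesion and the cytoskeleton. Fibroblasts at rest in a dense layer also lay down collagen and other matrix.

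The labels were first checked against the Lats2 probes. The 4 probes map to chromosome 14, minus strand, and each exceeded background at both densities on both arrays. Lats2 signal was present on the arrays labelled knockout, and relative to the array median 3 of the 4 probes were brighter there than on the WT arrays, by 1.02 to 1.44 on the log2 scale, while the most upstream one was dimmer by that measure (-0.98). The genotype name therefore refers to the label throughout. Which exon each probe reads was not assigned. With crowding, all 4 fell. The brightest, at chr14:56644080-56644139 in build mm8, gave log2 ratios of -1.09 and -0.95, and the most upstream, at chr14:56676512-56676571, gave -1.30 and -1.08. Of the 2 Lats1 probes, the brighter gave 0.20 and -0.19 and the other -0.47 and -0.61, so neither passed 2-fold.

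Among promoters the sequences below are shown because they belong to genes that fell and hold a motif that was searched for in their family. They are RefSeq windows (GRCm38.p6) from 250 bases before to 50 bases after the gene start, written 5′ to 3′ on the gene's strand, with matches on either strand in capitals. The TEAD motif GGAATG is marked in Ankrd1 (chr19:36119795-36120094, minus strand), Ccn1 (chr3:145649936-145650235, minus strand) and Lats2 (chr14:57746074-57746373, minus strand, 1 of the 2 windows listed for Lats2). An E2F motif, TTTGGCGC, is marked in the replication licensing gene Cdt1 (chr8:122567765-122568064, plus strand), and the NF-Y motif CCAAT in the sterol gene Msmo1 (chr8:64733529-64733828, minus strand).
Ankrd1: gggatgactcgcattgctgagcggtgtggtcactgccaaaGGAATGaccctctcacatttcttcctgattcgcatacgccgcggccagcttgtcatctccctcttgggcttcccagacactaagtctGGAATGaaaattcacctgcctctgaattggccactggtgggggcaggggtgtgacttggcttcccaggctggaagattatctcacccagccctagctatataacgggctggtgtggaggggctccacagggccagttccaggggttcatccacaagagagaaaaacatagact
Ccn1: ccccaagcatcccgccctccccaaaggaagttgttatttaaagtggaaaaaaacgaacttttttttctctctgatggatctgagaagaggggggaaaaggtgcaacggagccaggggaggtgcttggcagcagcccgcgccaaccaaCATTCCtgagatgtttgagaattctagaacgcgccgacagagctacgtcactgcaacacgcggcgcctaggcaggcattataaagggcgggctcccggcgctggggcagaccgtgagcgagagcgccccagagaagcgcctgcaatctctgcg
Lats2: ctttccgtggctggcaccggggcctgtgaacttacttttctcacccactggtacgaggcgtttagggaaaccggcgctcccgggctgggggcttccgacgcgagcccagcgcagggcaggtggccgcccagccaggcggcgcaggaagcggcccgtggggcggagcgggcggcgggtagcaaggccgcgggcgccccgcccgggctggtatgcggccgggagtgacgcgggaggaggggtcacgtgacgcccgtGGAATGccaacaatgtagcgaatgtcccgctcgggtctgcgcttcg
Cdt1: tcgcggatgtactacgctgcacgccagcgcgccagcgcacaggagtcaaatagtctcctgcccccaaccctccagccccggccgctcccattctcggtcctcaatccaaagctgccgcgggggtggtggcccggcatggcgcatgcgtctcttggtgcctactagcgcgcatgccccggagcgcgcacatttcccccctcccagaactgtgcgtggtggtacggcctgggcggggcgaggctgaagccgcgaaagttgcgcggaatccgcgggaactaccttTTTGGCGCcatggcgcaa
Msmo1: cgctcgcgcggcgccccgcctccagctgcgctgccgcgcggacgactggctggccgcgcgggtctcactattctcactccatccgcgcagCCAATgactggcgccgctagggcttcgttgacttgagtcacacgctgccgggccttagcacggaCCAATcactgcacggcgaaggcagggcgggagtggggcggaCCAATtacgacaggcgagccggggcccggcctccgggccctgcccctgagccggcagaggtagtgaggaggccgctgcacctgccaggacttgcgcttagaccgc

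Over the whole array, 23595 of 41174 probes could be measured, that is, both arrays placed them well above background at one density at least. Per channel, 55.4% to 67.7% of features were well above background, and 107 and 224 features were flagged as outliers. Among the measured probes, 1391 (5.9%) were higher and 880 (3.73%) lower at high density. Taking the brightest measured probe of each gene left 12564 genes, of which 954 (7.59%) rose and 538 (4.28%) fell. Rises made up 63.9% of the called genes under loess normalisation but 41.8% (680 rises, 948 falls) with median centring, so the balance of rises and falls depends on the scaling. At 4-fold, 197 genes were higher and 76 lower, and at 8-fold 59 were higher and 7 lower. The median of all genes was 0.05 (0.06 and 0.04 on the arrays) and became -0.13 with median centring. Across probes the arrays correlated with Pearson's r of 0.907, probes not being independent, and the SD of an array's deviation from the pair mean was 0.143.

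Pathways and families were described by how many measured members rose or fell and by the median of their members, to be read against 7.59% and 4.28% and the median of 0.05 over all genes. Of 48 lists, small leucine-rich proteoglycans, fibrillar collagens and elastic fibre genes had the highest medians, and ribosome biogenesis, YAP/TAZ targets and contractile genes the lowest. No set test was made.

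**Figure D1:**
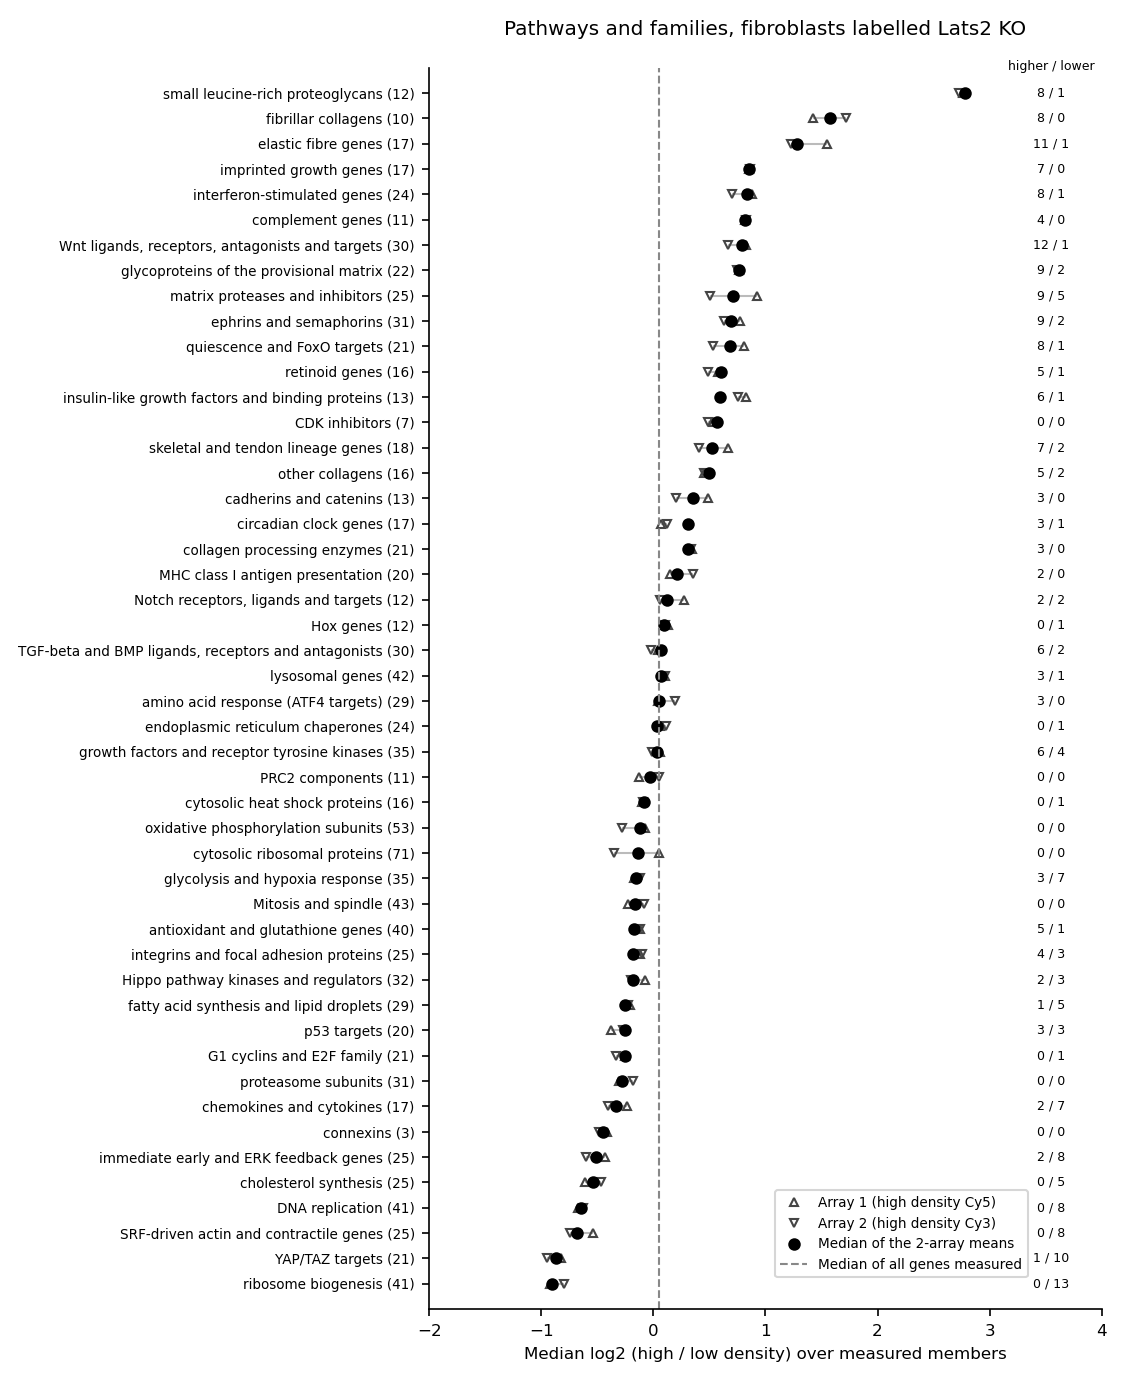
Median log2 ratio of high over low density for each pathway or family (number of measured members in brackets), as the median on each array (triangles) and of the 2-array means (filled circles), with the number of members that rose and fell at right. The dashed line marks the median of all genes, and the medians run from -0.90 in ribosome biogenesis to 2.78 in small leucine-rich proteoglycans.

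Several of the 20 largest rises are described first. Lum, which encodes the collagen-binding proteoglycan lumican, had normalised signals of 135 and 102 at low density and 17066 and 14787 at high density, and log2 ratios of 6.98 and 7.17. Dcn, the related proteoglycan decorin, went from 2216 and 5773 to 179594 and 344091, with ratios of 6.34 and 5.90. Both genes were far above their low density level on each array. Penk, which encodes the opioid peptide precursor proenkephalin, rose by 6.79. The Wnt antagonist Sfrp2 gave 5.44 and 5.23, and the BMP antagonist Chrdl1 gave 4.73 and 5.42. Second probes were lower, at 2.86 for Dcn, 4.49 for Penk, 2.29 for Chrdl1 and 2.22 for Plagl1. Other genes among the 20 largest rises included the membrane protein Itm2a (4.84), the imprinted zinc finger factor Plagl1 (4.41), the heparan sulphate proteoglycan Gpc3 (4.16), the glutamate transporter Slc1a3 (4.10), the progenitor surface marker Cd34 (4.02) and the ETS factor Erg (3.85). Signals contain the offset of 50 added in the background correction, so ratios of genes that are dim at 1 density are understated.

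Among the falls, Spp1 (osteopontin) went from signals of 9781 and 10679 at low density to 550 and 586 at high density, ratios of -4.15 and -4.20. The lipid droplet coat protein gene Plin4 gave -3.75 and -3.51, and Tfrc, the transferrin receptor that brings iron into growing cells, gave -3.38 and -2.71. Other large falls were Sema3e (-2.70), a guidance ligand, the cytoskeletal regulators Fgd3 (-2.69) and Cobl (-2.61), and Rassf6 (-2.56), of the Ras association domain family. Prl2c3 (-2.93), Prl2c5 (-2.90) and Speer3 (-3.46) also fell, but these belong to families of near-identical copies whose probes may read more than 1 member. Each named gene had the same sign on both arrays, as the rule for naming it required.

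**Figure D2:**
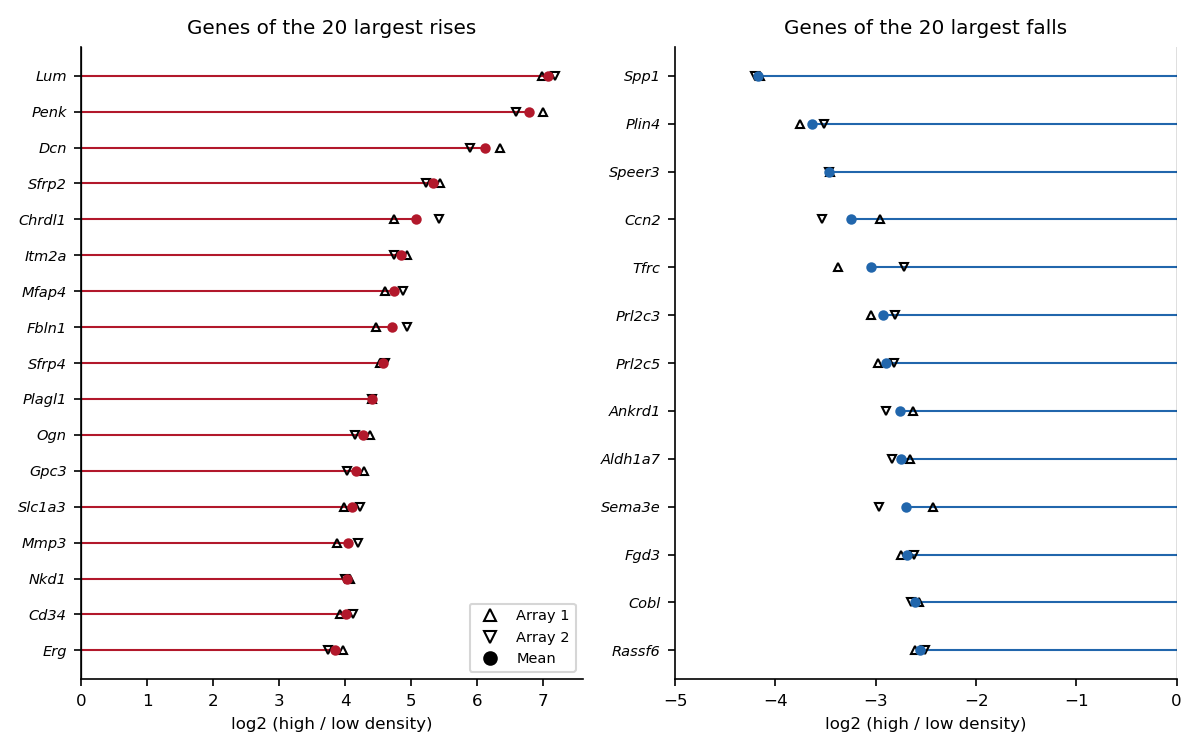
The 17 of the 20 largest rises (left) and 13 of the 20 largest falls (right) that the text names, on the log2 scale of high over low density, among genes well above background in all 4 channels, with each array as a triangle and the mean as a filled circle. Rises extend from 3.85 (Erg) to 7.08 (Lum) and falls from -2.56 (Rassf6) to -4.18 (Spp1).

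Genes seen at 1 density alone have only a bound. Of the measured genes, 203 were well above background at high density on both arrays and on neither at low density, and 45 were so at low density. Kera (keratocan) was at least 10.6-fold higher at high density, Slitrk6 at least 6.31-fold, Abi3bp at least 6.12-fold, the fibril-associated collagen Col14a1 at least 5.38-fold and the hormone-like gene Pthlh at least 4.75-fold. In the other direction Myct1 was at least 6.10-fold lower, and Fabp4, a fatty acid carrier of adipocytes, at least 2.12-fold lower.

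The Hippo components themselves showed no common shift. Of 32 measured, 2 rose and 3 fell, with a median of -0.18 (-0.07 and -0.20 on the arrays, and -0.37 with median centring). Dchs1 and Fat4, a pair of giant cadherins that bind each other across cells, were the 2 rises. Dchs1 signals went from 172 and 159 to 1124 and 913 (2.71 and 2.52), although its second probe gave 0.16, and Fat4 gave 1.74 and 1.72. The falls were Wwc1 (-1.53 and -1.79), which encodes the scaffold KIBRA, Amotl2 (-1.02 and -1.35), which binds YAP, and Lats2 itself. Yap1 gave -0.27 and Wwtr1, the gene of TAZ, gave 1.04 and 0.29, neither passing the rule. The core kinases Stk4 and Stk3 gave -0.70 and 0.37, and Nf2 gave 0.09.

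The list of YAP/TAZ targets shares Lats2 and Amotl2 with that of Hippo components. Of its members, 10 of 21 measured fell (47.6%) and 1 rose, with a median of -0.87. Ccn2, the matricellular growth factor CTGF, went from 146156 and 121886 to 18817 and 10478 (-2.96 and -3.54). Ankrd1, a nuclear ankyrin repeat protein, went from 17246 and 19667 to 2793 and 2644 (-2.63 and -2.89). In both the high density signal was well below the low density signal on each array. Ccn1 (CYR61) gave -1.34 and -1.36, and F3, the coagulation tissue factor, gave -2.12 and -2.13. Crim1 (-1.43), the kinase Nuak2 (-1.40) and the receptor kinase Axl (-1.18) fell too. Fjx1 was the exception that rose, by 1.73 and 1.32. In the promoter windows, 8 of the 15 measured targets with a window held GGAATG, including 6 of the 7 that fell and have a window, against 16.6% of all 27025 genes with a window. The sequence table used here lists no window for Ccn2. The share over all genes includes genes that were not measured here. Genes listed as YAP/TAZ targets may hold TEAD motifs whatever their response, so the share is a description only. The part of TEAD in the falls was not tested. The same limits hold for the motifs of the other lists.

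Of the 25 measured actin and contractile genes driven by the serum response factor SRF, none rose, 8 fell and 21 were below 0 on both arrays, with a median of -0.68. Fhl2, a LIM protein of focal adhesions, fell by 2.04, but its second probe gave -0.62. Cnn1 (calponin) gave -1.38 and -1.31, and Zyx (zyxin) -1.39 and -1.20. Actb, often used as a reference gene, fell from 21039 and 20695 to 10812 and 9130 (-0.96 and -1.18). The smooth muscle actin gene Acta2 (-0.47) and Tagln (-0.25) did not pass, but with median centring they were at -1.27 and -1.02 and the list median at -1.23. The 5 probes of Acta2 ran from -2.17 to 0.82. A CArG match, the SRF site, was found in 7 of 21 windows, against 1.81% of all genes, but in 1 of the 7 fallen genes with a window.

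Of 25 immediate early and ERK feedback genes, 8 fell and 2 rose, and the median was -0.52. Phlda1 (-2.45 and -2.38), the AP-1 subunit gene Fosl1 (-2.40 and -2.22) and the ERK phosphatase gene Dusp1 (-1.98 and -2.28) fell furthest, and Myc fell by 1.66. The zinc finger factors Egr1 (2.02 and 1.49) and Egr2 (1.98 and 1.97) rose. Fos gave -0.96 and Jun -0.33, neither of them called.

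Of 41 DNA replication genes, 8 fell (19.5%), none rose and 37 were below 0 on both arrays (median -0.65). The licensing factor gene Cdt1 went from 5617 and 5246 to 1501 and 1493 (-1.90 and -1.81), the ribonucleotide reductase gene Rrm2 gave -1.38 and -1.58 and the helicase subunit gene Mcm2 -1.48 and -1.33. Pcna gave -0.32 and -0.87 and was not called, though it was at -1.10 with median centring. None of 43 mitosis and spindle genes rose or fell, 27 were below 0 and 7 above 0 on both arrays, and their median was -0.16. With median centring the medians were -0.92 for replication and -0.44 for mitosis, and the difference between the families was not tested. The mitotic kinase gene Cdk1 gave -0.50 and -0.47, and Mki67, the Ki-67 proliferation marker, gave 0.08 and 0.32, or a mean of -0.27 with median centring. The lowest was Mad2l1 (-0.91, or -1.12 with median centring) and the highest Pttg1 (0.60). In the WT arrays the same probes had medians of -1.38 for replication and -1.45 for mitosis. The difference between genotypes was not tested.

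Of the G1 regulators, Ccne1 (cyclin E1) was the one of 21 that fell (-1.06 and -1.01). None of the 7 CDK inhibitor genes was called, with a median of 0.56. Cdkn1b, which encodes p27, came nearest with 0.94, while Cdkn1a (p21) was at -0.76 and -0.62. Among 20 p53 targets, the stress regulators Trp53inp1 (1.70), Sesn1 (1.52) and Gadd45a (1.29) rose, and Btg2 (-1.26), Tnfrsf10b (-1.07) and Ccng1 (-1.06) fell. In promoter windows, E2F motifs TTTGGCGC, TTTCGCGC, TTTCCCGC or TTTGCCGC were in 14 of 34 replication genes and in 2.60% of all genes. The CHR motif TTTGAA was in 25 of 35 mitosis genes and in 20.2% of all genes.

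Of 41 ribosome biogenesis factors, 13 fell (31.7%), none rose and 40 were below 0 on both arrays. Their median of -0.90 was the lowest of the families for the mean of both arrays, but with median centring YAP/TAZ targets (-1.39) and contractile genes (-1.23) lay below it (-1.13), and on the second array alone YAP/TAZ targets did (-0.95 against -0.80). Rrs1, a 60S assembly factor, went from 2412 and 2775 to 894 and 825 (-1.43 and -1.75). Gnl3 (nucleostemin) gave -1.40 and -1.30 and Nhp2, of H/ACA particles, -1.30 and -1.36. None of the 71 cytosolic ribosomal protein genes was called, and their median was -0.14 and differed in sign between the arrays (0.05 and -0.35). None of the 53 oxidative phosphorylation subunits and none of the 31 proteasome subunits was called. Their medians were -0.12 and -0.28. With median centring the medians moved to -0.84 for ribosomal proteins, -0.65 for oxidative phosphorylation and -0.74 for the proteasome, so their size depends on the scaling.

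**Figure D3:**
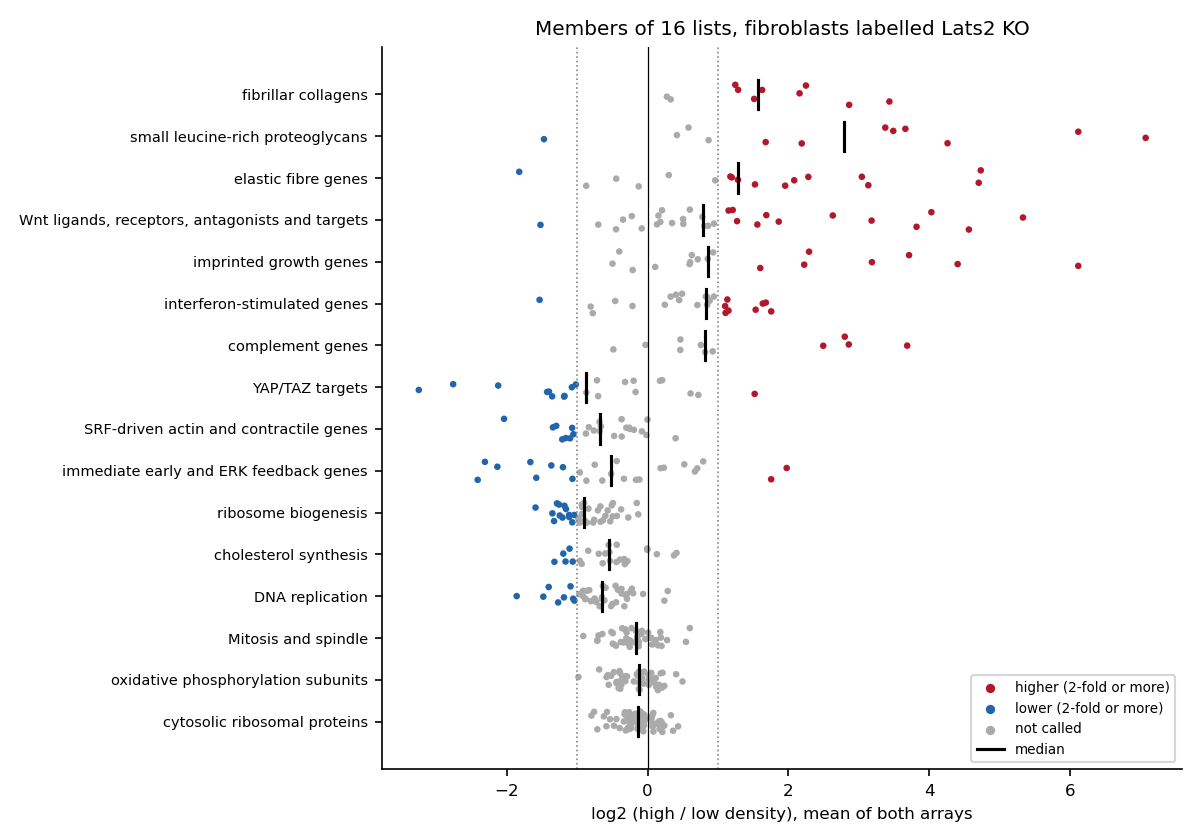
Each point is 1 measured gene of 16 lists on the log2 scale of high over low density (mean of both arrays), red where it rose and blue where it fell by 2-fold or more, with a black bar at the list median. Fibrillar collagens lie at 0.28 or above, ribosome biogenesis lies at -0.13 or below, and mitosis genes lie between -0.91 and 0.60.

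Of 25 cholesterol synthesis genes 5 fell and none rose, with a median of -0.54. They were the desaturase Sc5d (-1.16 and -1.48), the sterol carrier Stard4 (-0.89 and -1.50), Msmo1 (-1.25 and -1.08), Idi1 (-1.11) and Hsd17b7 (-1.06). A second Sc5d probe gave 0.22. CCAAT was in 16 of 17 windows of this list and in 41.1% of all genes, whereas TCACNCCAC, a sterol regulatory motif, was in 1 of 17, in 0 of the 4 fallen genes with a window and in 1.44% of all genes. In fatty acid and lipid droplet genes 5 of 29 fell, among them Plin4, the adipocyte regulator Pparg (-1.39 and -1.67) and the desaturase Fads2 (-1.54 and -1.17), and Acacb rose (1.11). Glycolysis and hypoxia genes held 7 falls and 3 rises of 35. The enolase gene Eno1 (-1.66 and -1.43), Ldha (-0.84 and -1.75) and Adm (-1.53 and -1.84) fell, and Pdk1 (1.44), Mxi1 (1.23) and Ndrg1 (1.02) rose. Ndrg1 was at 0.85 with median centring, and Pdk1 at 0.93 as the mean of its probes.

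The fibrillar collagens form the banded fibres of connective tissue. Of 10 fibrillar collagens measured, 8 rose (80.0%) and none fell, with a median of 1.57. Col1a1, of type I collagen, went from signals of 27251 and 33492 to 123211 and 147415 (2.18 and 2.14). Col1a2 gave 2.44 and 2.07, but its second probe gave 0.05. Col3a1, of type III collagen, went from 8768 and 14256 to 100297 and 145895 (3.52 and 3.36), and its 3 probes ran from 0.46 to 3.44. Col2a1 (2.86), Col27a1 (1.63), Col5a3 (1.51), Col5a1 (1.29) and Col11a1 (1.25) rose. The 2 Col2a1 probes ran from 0.10 to 2.86 and the 3 Col11a1 probes from 0.26 to 1.25. With median centring Col5a1 (0.70) and Col11a1 (0.76) were under 2-fold. Col5a2 (0.28) and Col24a1 (0.33) were above 0 on both arrays but were not called, and Col5a2 was at -0.21 with median centring. Of 16 other collagens, 5 rose, with Col14a1, Col6a1 (2.03) and Col6a2 (1.73) at the top, while Col7a1 (-1.74) and Col4a1 (-1.02), of anchoring fibrils and basement membrane, fell.

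Small leucine-rich proteoglycans, which bind collagen fibrils and growth factors, had the highest median of any list, 2.78, with 8 of 12 up and 1 down. Beside Lum and Dcn, Ogn (4.37 and 4.15), Aspn (3.50 and 3.48) and Omd (3.60 and 3.16) rose, and Kera and Epyc were seen at high density alone, the latter at least 4.03-fold higher. Bgn (biglycan) gave 0.17 and 0.67, and Podnl1 fell (-1.58 and -1.36). Elastic fibre genes rose in 11 of 17 cases (64.7%), with a median of 1.28. Mfap4 went from 464 and 557 to 11244 and 16267 (4.60 and 4.87), and Fbln1 from 339 and 408 to 7520 and 12514 (4.47 and 4.94). The microfibril gene Fbn2 rose by 3.14 and Fbn1 by 1.20 (0.81 with median centring), Eln (elastin) gave 0.96, and Efemp1, encoding fibulin 3, fell (-1.90 and -1.75).

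Of 22 provisional matrix glycoproteins 9 rose and 2 fell, Spp1 and Thbs1 (-1.73 and -1.54). Lama4, a laminin chain (3.81 and 3.78), Tgfbi (2.70 and 2.96) and Thbs3 (1.96 and 2.31) rose most, and Fn1 (fibronectin) rose by 0.81 and 1.25 but was at 0.44 with median centring, and its 4 probes ran from 0.30 to 1.03. Matrix proteases and their inhibitors went both ways, with 9 rises and 5 falls of 25. The stromelysin gene Mmp3 (3.88 and 4.19), the gelatinase gene Mmp2 (1.60 and 1.94) and the inhibitor gene Timp3 (2.77 and 2.76) rose. The plasminogen system genes Plaur (-2.25 and -2.39) and Plau (-1.60 and -1.77) fell, as did Adamts1 (-1.56 and -2.48).

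**Figure D4:**
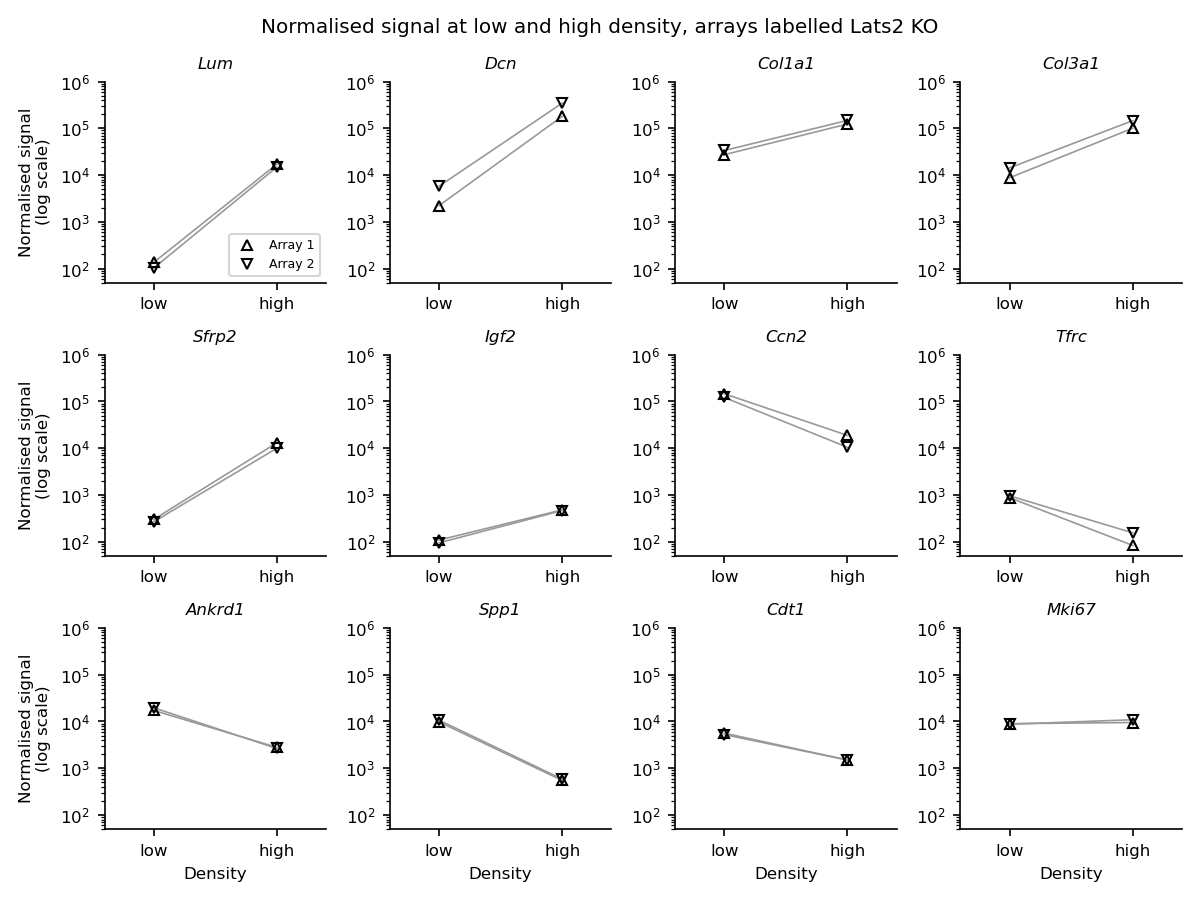
Normalised signal (arbitrary units, logarithmic axis, offset of 50 included) of 12 genes at low and high density on each of the 2 arrays, joined by array. Lum, Dcn, Col1a1, Col3a1, Sfrp2 and Igf2 lie higher at high density on both arrays, Ccn2, Tfrc, Ankrd1, Spp1 and Cdt1 lie lower, and Mki67 differs by less than 2-fold.

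Of 30 Wnt genes measured, 12 rose (40.0%) and 1 fell, with a median of 0.79. The secreted antagonists Sfrp2, Sfrp4 (4.53 and 4.60) and Sfrp1 (4.06 and 3.59) rose, as did the intracellular inhibitor Nkd1 (4.08 and 3.99), the ligand gene Wnt2 (3.27 and 3.10) and the receptor gene Fzd1 (2.75 and 2.52). A second Nkd1 probe gave 1.21. Axin2, a target of the pathway, was seen at high density alone and was at least 2.90-fold higher. Ccn5 was the fall (-1.67 and -1.37). In the insulin-like growth factor family 6 of 13 rose, among them Igf2 (2.14 and 2.31), Igf1 (2.26 and 2.10), Igfbp3 (3.89 and 3.47) and Igfbp4 (3.08 and 2.98), while Igfbp5 fell (-1.30 and -1.42).

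Of 30 TGF-beta and BMP genes 6 rose and 2 fell, the rises led by Chrdl1, Fstl1 (2.28 and 2.44) and Bmp4 (1.52 on each array), and the feedback inhibitor gene Smad7 fell (-1.32 and -2.25). The median of this family, 0.07, was -0.00 with median centring. Growth factors and receptor kinases gave 6 rises and 4 falls of 35, with Fgf18 (2.33), Egfr (2.30) and Pdgfra (1.68) up and the receptor gene Flt1 (-2.20), Csf1 (-1.80) and Hbegf (-1.40) down. The 5 Egfr probes ran from 0.74 to 2.30 and the 2 Pdgfra probes from 0.66 to 1.68. Ephrins and semaphorins, contact and guidance cues, had 9 rises of 31, with Epha3 (2.45 and 2.47) and Sema5a (2.30 and 2.55) highest, and Epha2 fell (-2.52 and -2.37). The 3 Epha3 probes ran from 0.93 to 2.46 and the 2 Sema5a probes from 0.39 to 2.42. Cadherins and catenins had 3 rises of 13, Cdh4 (1.61), Cdh11 (1.19, or 0.63 with median centring) and Cdh3 (1.14). Of 25 integrin and focal adhesion genes 4 rose, the highest being Itga11 (1.79), a collagen receptor chain, and 3 fell, the lowest being Itga6 (-1.73), a laminin receptor chain. The gap junction gene Gja1 gave -0.90. The Notch ligand-like gene Dlk1 rose by 3.98 and 3.45.

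Of 21 quiescence and FoxO genes 8 rose and 1 fell (median 0.68), led by Gas2 (3.66 and 3.18), the selenium carrier Selenop (3.17 and 3.00) and Sesn3 (2.72 and 2.59). Cited2 fell (-2.10 and -2.39). In the imprinted set 7 of 17 rose and none fell (median 0.86), including Plagl1, Dlk1, Mest (3.17 and 3.20), Meg3 (2.20 and 2.39), Igf2 and Peg3 (1.96 and 1.24), and Dcn is itself a member. H19 gave 0.93 and was not called. Retinoid genes had 5 rises of 16, with the alcohol dehydrogenase genes Adh7 (2.13) and Adh1 (2.08) up and Aldh1a7 down (-2.66 and -2.84). Of 17 clock genes Dbp (1.70), Tef (1.55) and Rora (1.11, or 0.98 with median centring) rose and Nfil3 fell (-1.34).

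Innate immune genes moved in both directions. Interferon-stimulated genes rose in 8 of 24 cases (33.3%), with 1 fall and a median of 0.84, or 0.33 without the filter on dim probes. Gbp3 went from 143 and 132 to 480 and 450 (1.75 and 1.76), the GTPase gene Iigp1 gave 1.66 and 1.70 and Ifit3 1.61 and 1.67, while Ifi47 fell (-1.56 and -1.51). The interferon response motif (GAAA, any 2 bases, GAAA) was in 10 of 18 windows of this list, and in 3.99% of all genes. Complement genes rose in 4 of 11 cases, among them Clu (3.79 and 3.58), C1s1 (2.90 and 2.82) and C1ra (2.50). Chemokines and cytokines gave 7 falls and 2 rises of 17. The monocyte attractant gene Ccl2 went from 16590 and 20261 to 4221 and 3185 (-1.97 and -2.67), Ccl9 gave -2.12 and -2.30, and Ptgs2 (cyclooxygenase 2) gave -1.99 and -1.98. The MHC class I list had 2 rises of 20 and a median of 0.21, which was -0.03 with median centring.

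Other lists held few calls. The PRC2 components, of the complex that methylates histone H3 at lysine 27, gave 0 calls of 11, with Ezh2 at -0.38, Suz12 at -0.55, Eed at -0.52 and Ezh1 at 0.45. Of the Hox genes 12 of 39 were measured, and 1 fell. Endoplasmic reticulum chaperones had 1 fall of 24 (Sdf2l1, -1.08) and cytosolic heat shock genes 1 of 16 (Hspb1, -1.76). Among 29 ATF4 targets 3 rose, Vldlr (2.17), Atf5 (1.36 and 1.64, or a mean of 0.99 with median centring) and Slc7a3 (1.19). Of 42 lysosomal genes 3 rose, Ctsf (1.74), Psap (1.21) and Arsa (1.15), and Gla fell (-1.34). With median centring Psap (0.71) and Arsa (0.72) were under 2-fold and the list median went from 0.07 to -0.32. In the antioxidant set 5 of 40 rose, all glutathione transferases (Gsta3 2.15, Gstm1 1.86, Gsta4 1.66, Gstt1 1.57 and Gstt3 1.53), and another, Gsto1, fell (-2.07 and -1.91).

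Markers of the labelled cell type were present. All 16 fibroblast markers were measured, with summed normalised signals of 590777 and 597965 at low density and 1113640 and 1456050 at high density. Of these 10 rose and 1 fell, S100a4 (-1.82 and -3.09), and 14 were above 0 on both arrays. The list median was 1.21, or 0.57 with median centring and 0.98 with the mean over probes. Lum, Dcn, Col1a1, Col1a2 and Col3a1, described above, are among these markers. Of 18 macrophage markers 6 were measured, and Ptprc, Adgre1 and Itgam were not well above background at either density. Lyz2 was the one that rose (1.85), whereas 4 of the 6 were below 0 on both arrays and the list median was -0.08. The list's summed signal, which includes Lyz2, was 1971 and 2152 at low density and 5076 and 6180 at high density. Of 16 endothelial markers 6 were measured, of which Erg and Ramp2 (1.07) rose and Flt1 fell, while Pecam1, Cdh5 and Kdr were not well above background. Their sum was 45005 and 47772 at low and 57188 and 51742 at high density. The endothelial median was -0.12, with 2 members above 0 and 3 below 0 on both arrays. The skeletal muscle sum went from 48135 and 37137 to 27722 and 19870, with Myod1 and Myog not well above background. Of 14 epithelial markers 2 were measured, with a sum of 399 and 480 at low and 160 and 187 at high density, and Krt19 fell (-2.31 and -2.06). Of 16 neural and glial markers 7 were measured, with a median of 0.42 (0.05 without the filter on dim probes), of which 2 rose, S100b (1.98) among them, and Tubb3 (-1.07) fell, and their sum was 5434 and 5774 at low and 6064 and 5160 at high density. The part of other cells in any result was not tested.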

How the data were processed

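Per the labels and file headers, total RNA (500 ng) was labelled and hybridised to 2-colour Agilent mouse arrays, read with Agilent Feature Extraction 10.5.1.1 (submitters' processing notes). The deposited scanner files hold raw spot and local background intensity for Cy3 and Cy5, positions in build mm8, and flags set by that software. The authors' series matrix holds log10 ratios that match the scanner's own after rounding, and served as an alternative.

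Intensities were corrected with normexp (offset 50) and normalised within arrays by loess in R 4.3.3 with limma 3.58.1 and data.table (version 1.17.8), giving log2 ratios of high over low density from the deposited intensities. The swapped array was turned and both were averaged. Control and flagged spots were left out, and a probe was kept if both arrays placed it well above background at one density at least. The brightest such probe stood for each gene, named by RefSeq (GRCm38.p6) symbol. Spreads over the probes of a gene are printed for some genes only. Python 3.11.15 with numpy 2.4.6, pandas 2.3.3 and matplotlib 3.10.9 made the summaries and plots. The normalisation and the call rule were run on simulated data with equal numbers of rises and falls. That run does not bear on the balance of rises and falls here.

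No model was tested, as the pair is 1 replicate. Bounds compare the brighter density with, per array, the lowest signal among probes well above background or the probe's own signal, whichever was higher. Members and gene lists were chosen with earlier results of these data known. Named genes were Lats2 and Lats1, the 3 highest and 3 lowest members of each list (all of lists of up to 10 genes), defining members, the 20 largest rises and falls and the 5 largest bounds each way. Further list members named in the report were chosen after their values were seen. Alternatives were median centring, no background correction, offset 10, processed signals, the series matrix, probe filters, a 1.4-fold threshold, each array alone and the mean over probes. Which exon a probe reads was not analysed here. Some genes that met the rule are not reported here.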

Additional observations from a re-analysis of the deposited data

Results flagged for a closer look

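The results below had one sign on both Lats2-/- arrays and the opposite sign on both WT arrays. With 1 replicate per genotype the difference was not tested, and the 2 Lats2-/- arrays also lay on other slides than the WT pair. WT values come from the reported processing alone, so their signs were not checked under the alternatives. Values are log2 ratios of high over low density, Lats2-/- first and WT second.

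The widest gaps were in Plin4 (-3.63 against 4.37), a lipid droplet protein gene, and Igfbp5 (-1.36 against 6.38), of an insulin-like growth factor binding protein. The secreted protease gene Adamts1 gave -2.02 against 4.25, Efemp1 -1.82 against 3.47 and Aldh1a7 -2.75 against 2.41. The adipocyte genes Pparg (-1.53 against 0.76) and Fabp4 (-1.08 against 1.37) had the same pattern of signs, but Fabp4 was not well above background at high density, so its fall is only a bound of at least 2.12-fold. Chemokine genes with a fall beside a positive WT value were Ccl2 (-2.32 against 0.82) and Ccl9 (-2.21 against 0.30). Of p53 targets, Cdkn1a gave -0.69 against 0.32, Ccng1 -1.06 against 0.74 and Btg2 -1.26 against 0.44. F3 (-2.12 against 0.51), Cited2 (-2.24 against 0.43) and Fos (-0.96 against 0.61) also had a negative density ratio in Lats2-/- cells and a positive one in WT cells.

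In the reverse order, collagen genes Col2a1 (2.86 against -0.48), Col5a1 (1.29 against -1.13) and Col5a2 (0.28 against -0.76) were positive in the Lats2-/- cells. So were Fn1 (1.03 against -1.60), Egr2 (1.98 against -1.03) and the proliferation marker Mki67 (0.20 against -1.63). Fjx1 gave 1.52 against -0.19, Cdh3 1.14 against -0.54, Slc7a3 1.19 against -0.26, Ramp2 1.07 against -0.15 and Nf2 0.090 against -0.057. With median centring the Lats2-/- values of Mki67 (-0.27), Col5a2 (-0.21) and Nf2 (-0.039) were negative, so their sign depends on the scaling.

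List medians of opposite sign were p53 targets (-0.25 against 0.31), chemokines and cytokines (-0.34 against 0.29), antioxidant and glutathione genes (-0.18 against 0.22), oxidative phosphorylation subunits (-0.12 against 0.11) and fatty acid synthesis and lipid droplets (-0.25 against 0.01). The medians of cadherins and catenins (0.35 against -0.19), amino acid response genes (0.054 against -0.35) and endoplasmic reticulum chaperones (0.034 against -0.35) had the other order. With median centring the Lats2-/- medians of the last 2 were -0.20 and -0.36, and that of the chaperones was also negative with the mean over probes (-0.14), the processed signals and the series matrix. The chemokine median was 0.013 without the filter on dim probes, but -0.93 with the processed signals and -0.83 for probes well above background in all 4 channels. The cadherin and catenin median was 0.11 with median centring, 0.18 with the mean over probes and 0.12 without the filter.

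Control probes for the E1A RNA spike-in, which take part in no comparison, had median background-subtracted signals (scanner units) of 8.16 (high density channel) and 7.58 (low density channel) on the first Lats2-/- array, against 3.31 and 3.88 for negative control probes. On the second they were 16.8 and 11.4, against 14.8 and 7.14.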

How the results depend on the processing

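No named gene that rose or fell changed sign under any alternative. With median centring 11 named rises came under 2-fold, namely Arsa, Atf5, Cdh11, Col11a1, Col5a1, Fbn1, Fn1, Ndrg1, Psap, Ramp2 and Rora, none of the 80 named falls did, and Acta2, Fos, Gja1, Mad2l1, Pcna and Tagln newly passed as falls and Eln as a rise. With the mean over probes 7 named rises (Cdh11, Col11a1, Col5a1, Fn1, Pdk1, Ramp2, Tef) and 6 named falls (Col4a1, Fabp4, Hsd17b7, Igfbp5, Sc5d, Tnfrsf10b) came under 2-fold. On the second array alone this held for Cdh3, Col4a1, Fabp4, Fbn1, Lats2 and Ramp2, and on the first alone for Acacb, Actb, Fn1, Hsd17b7, Ldha, Ndrg1, Stard4 and Tubb3. Of those not called, Col5a2, Mki67, Bgn, Nf2 and Lats1 had the other sign with median centring, and Nf2 and Lats1 in further settings. In all, 43 of 53 list medians, taken less the median of all genes, kept their sign in every one. With median centring in place of loess, 1517 probes and 948 genes were lower and 40.3% of changed probes were higher. The scanner's processed signals gave 4866 changed probes (2703 higher, 2163 lower) and 2528 genes (1519 and 1009), and the series matrix gave 4858 probes (2698 and 2160) and 2524 genes (1517 and 1007). A 1.4-fold threshold gave 8168 probes (4416 and 3752) and 4799 genes (2774 and 2025). Among list medians that turned, chemokines (-0.38) and clock genes (0.27) lay furthest from the median of all genes in the reported analysis. With median centring they were amino acid response -0.068, lysosomal genes -0.19, macrophage markers 0.15 and endothelial markers 0.059. Growth factors and receptor kinases turned to 0.021 without background correction, 0.048 with an offset of 10, 0.024 with processed signals, 0.024 with the series matrix and 0.011 with the mean over probes. Without the filter on dim probes, which adds members not above background, medians printed in the report moved to 1.93 for small leucine-rich proteoglycans, 0.62 for imprinted genes, 0.51 for Wnt genes and 0.34 for FoxO genes. There, less all genes, chemokines turned to 0.011 and chaperones to 0.032, and clock genes to -0.0053 with the mean over probes. On single arrays (without replicate 1, without replicate 2) the values were -0.060 and -0.018 for TGF-beta and BMP genes, -0.052 and 0.0053 for growth factors, 0.15 and -0.011 for amino acid response, 0.071 and 0.0022 for chaperones and 0.0061 and -0.18 for PRC2. The cause was not tested. No paired analysis was possible because no test was made on 1 replicate, and each ratio already compares the densities within an array. Precision is limited by the 2 arrays, and genes near background have compressed ratios.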
